A study of Rattus norvegicus with 8 samples.

Results

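Cathepsins are the proteases of the lysosome, and 9 of them were followed in glomerular RNA together with cystatin C (Cst3), the secreted inhibitor that blocks the cysteine cathepsins. The genes were Ctsl, Ctsb, Ctss, Ctsk, Ctsz, Ctsh, Ctsc, Ctsd, Ctsa and Cst3, chosen by symbol, with earlier results of these data known. They account for 10 of 14217 genes and for 12 of 31042 probe sets measured, since Ctsl and Ctsc have 2 probe sets each. Where a gene had several probe sets, the one with the highest average stands for it.

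Glomeruli came from Dahl salt-sensitive rats (Dahl SS, called Dahl rats here) aged 6 weeks, Dahl rats aged 4 weeks, spontaneously hypertensive rats (SHR) aged 6 weeks and SHR rats aged 4 weeks, with 2 rats and 2 arrays in each of these 4 groups. Dahl rats become proteinuric without further treatment, and SHR rats, which also become hypertensive, serve as the non-proteinuric strain. The labels name no treatment beyond strain and age, and the study's methods describe male rats on a low-salt diet. The 2 strains differ across the whole genome, so a strain difference cannot be assigned to one locus. Values are log2 expression values of Affymetrix arrays, on which each probe set has its own affinity, so values are compared between rats and never between genes. A list of 16 podocyte genes was read as a check of the tissue, and nephrin (Nphs1), the defining protein of the podocyte slit diaphragm, lay between 11.84 and 12.65 in every rat. The lowest value of that list was 3.06 to 3.47 by rat. The highest value among proximal tubule markers was 12.15 to 13.79 by rat, so the check does not show glomeruli free of tubule RNA.

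Most cathepsins are cysteine proteases that are made as inactive precursors and become active in the acid lumen of the lysosome. In kidney, proximal tubule cells use them to degrade filtered protein, macrophages use cathepsin S to trim the invariant chain of MHC class II, and podocyte cathepsin L can cut dynamin, synaptopodin and CD2AP. Cystatin C is made by most nucleated cells, is filtered freely and is broken down in the proximal tubule. The comparisons below ask which of these genes differed between Dahl and SHR rats, at which age, and which of them varied over the rats as macrophage markers did or as tubule markers did.

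The bases just upstream of the start are printed for 5 members because their RNA varied in different ways: Ctss, Ctsk and Ctsz varied together over the rats, Ctsc ran the other way, and Cst3 differed between the strains at both ages. They are 250 bases before the annotated start, from RefSeq on build GRCr8, written 5′ to 3′ on the strand of the gene, and 9 of the 10 members had an entry. Capitals mark GAGGAA, the core bound by PU.1 (the ETS factor of the myeloid lineage), or its reverse complement TTCCTC.
Ctss, chr2:185775146-185775395, plus strand: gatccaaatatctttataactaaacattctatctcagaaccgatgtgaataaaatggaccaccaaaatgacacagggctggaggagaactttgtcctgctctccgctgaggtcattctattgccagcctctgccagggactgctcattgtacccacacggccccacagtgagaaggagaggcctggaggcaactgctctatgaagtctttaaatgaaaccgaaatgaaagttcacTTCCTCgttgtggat
Ctsk, chr2:185747298-185747547, plus strand: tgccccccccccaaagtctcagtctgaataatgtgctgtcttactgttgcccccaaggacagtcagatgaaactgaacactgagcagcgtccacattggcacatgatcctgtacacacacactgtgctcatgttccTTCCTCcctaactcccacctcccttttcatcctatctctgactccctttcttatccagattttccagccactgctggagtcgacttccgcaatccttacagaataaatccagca
Ctsz, chr3:183653848-183654097, minus strand: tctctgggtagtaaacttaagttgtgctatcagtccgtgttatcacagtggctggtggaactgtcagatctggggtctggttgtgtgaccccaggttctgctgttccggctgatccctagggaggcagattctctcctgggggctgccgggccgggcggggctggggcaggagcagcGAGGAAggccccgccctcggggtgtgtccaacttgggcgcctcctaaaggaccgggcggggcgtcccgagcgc
Ctsc, chr1:151440799-151441048, plus strand: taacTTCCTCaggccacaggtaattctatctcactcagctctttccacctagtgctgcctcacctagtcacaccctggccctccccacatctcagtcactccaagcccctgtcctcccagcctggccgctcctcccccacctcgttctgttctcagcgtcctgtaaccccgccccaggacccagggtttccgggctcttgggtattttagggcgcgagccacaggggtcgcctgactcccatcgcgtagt
Cst3, chr3:156793938-156794187, minus strand: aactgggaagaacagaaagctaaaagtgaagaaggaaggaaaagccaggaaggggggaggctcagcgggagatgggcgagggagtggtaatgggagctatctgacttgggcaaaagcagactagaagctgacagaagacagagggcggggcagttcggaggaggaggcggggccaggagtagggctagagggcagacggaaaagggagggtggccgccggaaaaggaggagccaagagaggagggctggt

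GAGGAA stood in 6 of the 9 windows (Ctsa, Ctsc, Ctsh, Ctsk, Ctss and Ctsz), against 23.3% of 33469 windows of the same length in the genome. These 6 hold members that varied with macrophage markers and members that varied with tubule markers, so the match did not separate them. CACGTG, the E-box read by TFEB, the regulator of lysosomal genes, stood in 5.59% of all windows and, of the members, in Ctsd alone, at 157 and 10 bases before the start. TATAAA or its reverse complement TTTATA stood in 12.9% of all windows. Of the members it stood in Ctss alone, as TTTATA at 238 bases before the start. A match of letters is not a binding site, and none of these was tested for binding.

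Over both ages, 5 of the 10 genes differed between Dahl and SHR rats. Ctss, Ctsk, Ctsz and Cst3 were higher in Dahl rats and Ctsa was lower, while Ctsl, Ctsb, Ctsd, Ctsh and Ctsc did not pass the test (limma, Benjamini-Hochberg over all probe sets, adjusted p under 0.05). Of all probe sets, 34.7% were called in this comparison, 10.6% higher and 24.2% lower. The split of 3283 higher and 7504 lower became 2261 and 2479 after quantile normalization. A fit of the 13445 probe sets with a mean of at least 5, as all members have, called 2726 higher and 1662 lower. The median difference was 0.05 for the 10 genes, against -0.05 for all probe sets, on the log2 scale, Dahl minus SHR. The limma p-values measure the spread between 2 rats per group. The exact permutation p-values of the strain difference, given below, pool both ages, so a change with age enters their spread. Those of correlations come from permuting the rats across the groups.

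**Figure D1:**
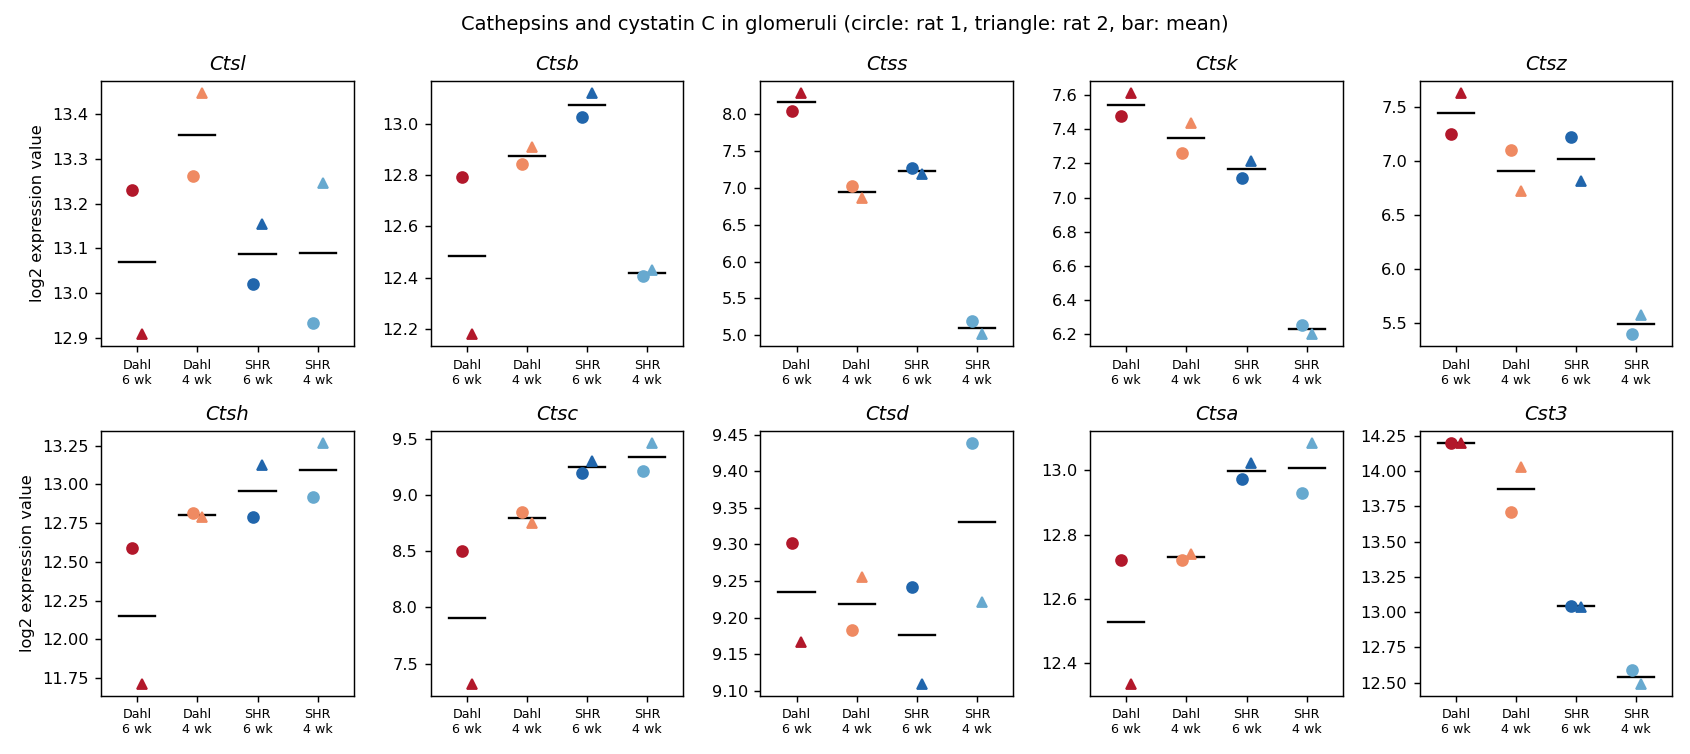
Log2 expression value of each member (vertical axis, a scale of its own per gene) in each rat of the 4 groups (horizontal axis), with circles for rat 1, triangles for rat 2 and bars for the group mean. Ctss, Ctsk and Ctsz are lowest in the 2 SHR rats of 4 weeks, Cst3 separates the strains at both ages, and Ctsh, Ctsc, Ctsb and Ctsa are lowest in Dahl 6 weeks rat 2.

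The cysteine cathepsin with the strain difference furthest from 0 was Ctss, cathepsin S, an elastin-cutting protease of antigen-presenting cells. Its log2 value was 8.03 and 8.28 in Dahl rats of 6 weeks, 7.02 and 6.86 in Dahl rats of 4 weeks, 7.27 and 7.18 in SHR rats of 6 weeks, and 5.19 and 5.02 in SHR rats of 4 weeks. The 2 young SHR rats stood far below all others, and Dahl rats of 4 weeks overlapped with no group although they lay just under SHR rats of 6 weeks. The difference was 1.38 on the log2 scale (SE 0.08, 2.61-fold, limma adjusted p = 0.00328). Over both ages the 4 Dahl and 4 SHR rats overlapped, and the exact permutation test of the 8 values, two-sided, gave p = 0.171 (the smallest p that 4 against 4 rats can give is 0.0286).

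Cathepsin K (Ctsk), a collagen-cutting protease best known from osteoclasts, read 7.48 and 7.61 in Dahl rats of 6 weeks, 7.26 and 7.44 in Dahl rats of 4 weeks, 7.11 and 7.22 in SHR rats of 6 weeks, and 6.26 and 6.20 in SHR rats of 4 weeks. The 4 Dahl rats were all above the 4 SHR rats, by a narrow margin at 6 weeks and a wide one at 4 weeks. The difference was 0.75 (SE 0.06, 1.68-fold, limma adjusted p = 0.00614), and the exact permutation p was 0.0286, the smallest possible.

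Cathepsin Z (Ctsz), a carboxypeptidase abundant in myeloid cells, had values of 7.26 and 7.63 in Dahl rats of 6 weeks, 7.10 and 6.73 in Dahl rats of 4 weeks, 7.22 and 6.81 in SHR rats of 6 weeks, and 5.40 and 5.58 in SHR rats of 4 weeks. The young SHR rats stood far below the rest, and Dahl rats of 4 weeks overlapped with SHR rats of 6 weeks. The difference was 0.93 (SE 0.16, 1.90-fold, limma adjusted p = 0.0206; exact permutation p = 0.171), and it was called in 4 of the 8 fits that each left out 1 rat. It was lost without Dahl 6 weeks rat 2, without either SHR rat of 4 weeks and without SHR 6 weeks rat 2.

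Cystatin C separated the strains at both ages. Cst3 read 14.20 and 14.20 in Dahl rats of 6 weeks, 13.71 and 14.03 in Dahl rats of 4 weeks, 13.04 and 13.04 in SHR rats of 6 weeks, and 12.59 and 12.49 in SHR rats of 4 weeks. All 4 Dahl rats were above all 4 SHR rats, and no 2 of the 4 groups overlapped. The difference was 1.25 (SE 0.08, 2.37-fold, limma adjusted p = 0.00358; exact permutation p = 0.0286). Ctss, Ctsk and Cst3 were each called over both ages in 8 of 8 fits without 1 rat.

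Cathepsin A (Ctsa), a serine carboxypeptidase that also protects lysosomal beta-galactosidase and neuraminidase, was the member called lower. It read 12.72 and 12.34 in Dahl rats of 6 weeks, 12.72 and 12.74 in Dahl rats of 4 weeks, 12.97 and 13.02 in SHR rats of 6 weeks, and 12.93 and 13.08 in SHR rats of 4 weeks. The strains did not overlap, and Dahl 6 weeks rat 2 lay apart from the other 3 Dahl rats. The log2 difference was -0.37 (SE 0.10, limma adjusted p = 0.0420; exact permutation p = 0.0286). It stood close to the threshold and was called in 2 of 8 fits without 1 rat, those that left out either Dahl rat of 6 weeks. The call was also lost after quantile normalization (-0.31, adjusted p = 0.0912).

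Cathepsin C (Ctsc), the dipeptidyl peptidase that activates granule serine proteases, lay lower in all 4 Dahl rats, yet its main probe set missed the threshold. Its values were 8.50 and 7.32 in Dahl rats of 6 weeks, 8.85 and 8.75 in Dahl rats of 4 weeks, 9.20 and 9.31 in SHR rats of 6 weeks, and 9.21 and 9.47 in SHR rats of 4 weeks. The SHR rats were nearly equal, whereas the older Dahl rats differed by -1.18, rat 2 minus rat 1. The log2 difference was -0.94 (SE 0.27, limma adjusted p = 0.0521; exact permutation p = 0.0286). The other probe set of Ctsc ran the same way, with a difference of -1.16 (SE 0.25, limma adjusted p = 0.0318), and was called lower.

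Cathepsin H (Ctsh), a lysosomal aminopeptidase, read 12.59 and 11.71 in Dahl rats of 6 weeks, 12.82 and 12.79 in Dahl rats of 4 weeks, 12.79 and 13.13 in SHR rats of 6 weeks, and 12.92 and 13.27 in SHR rats of 4 weeks. The strains overlapped slightly, and Dahl 6 weeks rat 2 was far below the other rats. The difference of -0.55 (SE 0.23, limma adjusted p = 0.108) has a 95% confidence interval of -1.13 to 0.04. Over both ages Ctsk and Cst3 were higher and Ctsa and Ctsc were lower in Dahl rats without overlap, that is 4 of 10 members, where 50.3% of all probe sets did not overlap (8.15% higher and 42.1% lower).

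Of the lysosomal endopeptidases, Ctsl, Ctsd and Ctsb had main probe sets with differences near 0. Cathepsin L (Ctsl), the protease known to cut podocyte dynamin, read 13.23 and 12.91 in Dahl rats of 6 weeks, 13.26 and 13.45 in Dahl rats of 4 weeks, 13.02 and 13.16 in SHR rats of 6 weeks, and 12.93 and 13.25 in SHR rats of 4 weeks. The strains overlapped at 6 weeks, and at 4 weeks both Dahl rats lay just above both SHR rats. The difference was 0.12 (SE 0.11, limma adjusted p = 0.404) with an interval of 0.89-fold to 1.34-fold.

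The other probe set of Ctsl gave a different call. It read 10.55 and 10.34 in Dahl rats of 6 weeks, 10.60 and 10.82 in Dahl rats of 4 weeks, 10.33 and 10.34 in SHR rats of 6 weeks, and 10.05 and 10.23 in SHR rats of 4 weeks. It was higher in Dahl rats over both ages by 0.34 (SE 0.08, 1.27-fold, limma adjusted p = 0.0376) and at 4 weeks by 0.57 (SE 0.12, 1.49-fold, adjusted p = 0.0434). At 6 weeks its ranges overlapped and the difference was 0.11 (adjusted p = 0.502). Whether the 2 probe sets read the same transcripts was not tested.

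Cathepsin D (Ctsd), the aspartic protease of the lysosome, had log2 values between 9.17 and 9.30 in Dahl rats and between 9.11 and 9.44 in SHR rats. The strain difference was -0.03 (SE 0.07, limma adjusted p = 0.766), with an interval of 0.87-fold to 1.11-fold, and the groups overlapped at each age. Cathepsin B (Ctsb), an abundant endopeptidase and peptidyl dipeptidase, differed by -0.06 over both ages (SE 0.14, adjusted p = 0.722), but its ages ran apart, as given with the changes in age.

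The same genes were then compared at each age. At 6 weeks Ctss was 0.93 higher in Dahl rats (SE 0.11, 1.91-fold, limma adjusted p = 0.0343) and Cst3 1.16 higher (SE 0.11, 2.23-fold, adjusted p = 0.0223). That made 2 of 10 called, against 3.28% of all probe sets (1.65% higher). The fit of 13445 probe sets with a mean of at least 5 called 926 higher and 419 lower. Neither 6-week call was firm: that of Ctss was made in 1 of 8 fits without 1 rat, the one without Dahl 6 weeks rat 1, and that of Cst3 in 3 of 8, those without Dahl 6 weeks rat 1 or either Dahl rat of 4 weeks. Ctsk (0.38, adjusted p = 0.0760), Ctsz (0.43, adjusted p = 0.221) and Ctsc (-1.34, adjusted p = 0.110) did not pass.

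At 4 weeks Ctss was 1.84 higher in Dahl rats (SE 0.11, 3.57-fold, limma adjusted p = 0.00487) and Ctsk 1.12 higher (SE 0.08, 2.17-fold, adjusted p = 0.00697). Ctsz was 1.42 higher (SE 0.22, 2.68-fold, adjusted p = 0.0273) and Cst3 1.33 higher (SE 0.11, 2.52-fold, adjusted p = 0.00794). Thus 4 of 10 were called higher and 0 lower, against 12.0% of all probe sets (5.63% higher). The fit of 13445 probe sets with a mean of at least 5 called 1875 higher and 924 lower. Ctss, Ctsk and Cst3 kept the 4-week call in all 8 fits without 1 rat, and Ctsz in 2 of 8, those without either Dahl rat of 6 weeks.

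**Figure D2:**
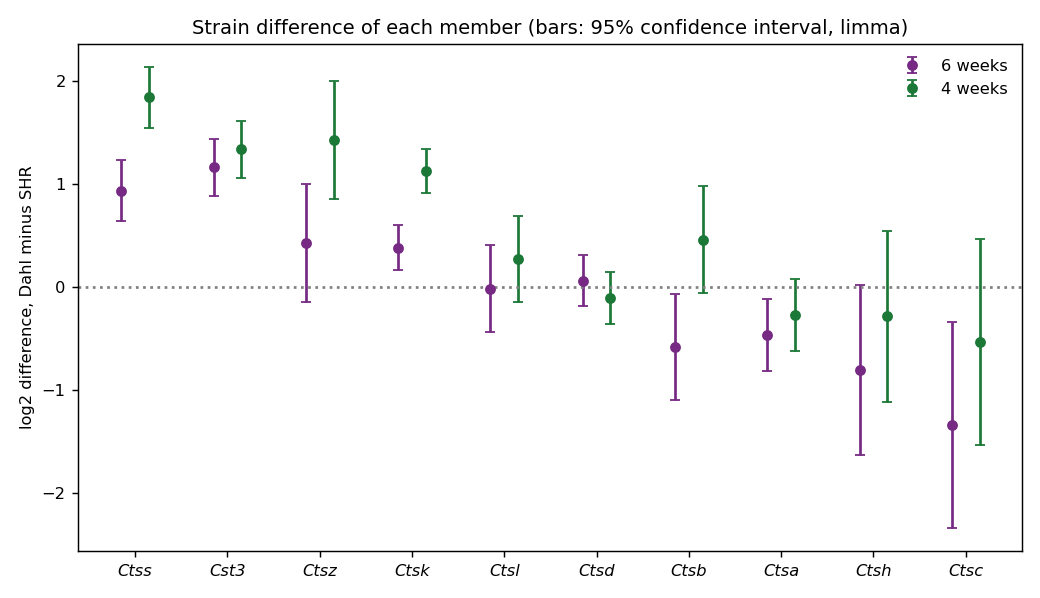
Log2 difference, Dahl minus SHR (vertical axis), of each member at 6 weeks (left point of each pair) and at 4 weeks (right point), with 95% confidence intervals from limma. Ctss, Ctsz, Ctsk and Ctsb sit lower at 6 weeks than at 4 weeks, while the 2 points of Cst3 lie close, at 1.16 and 1.33.

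The strain difference was lower at 6 weeks than at 4 weeks for 9 of 10 members, with a median change of -0.63 against -0.0015 for all probe sets. Tested gene by gene, 0 of 10 changed after adjustment in limma, where 0.519% of all probe sets were called. An unadjusted p under 0.05 was found for 4 of 10 members and for 3404 of 31042 probe sets. Ctss changed by -0.90 (SE 0.16, adjusted p = 0.133), Ctsk by -0.74 (SE 0.12, adjusted p = 0.105) and Ctsz by between -1.81 and -0.19 (95% confidence interval, adjusted p = 0.341). For Cst3 the change was -0.17 with a 95% confidence interval of -0.56 to 0.22. The 4-week values enter both this contrast and the 4-week difference, so the 2 are not independent.

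In SHR rats Ctss, Ctsk and Ctsz rose with age. Ctss was 2.12 higher at 6 weeks than at 4 weeks (SE 0.11, 4.33-fold, limma adjusted p = 0.00696), Ctsk 0.94 higher (SE 0.08, 1.91-fold, adjusted p = 0.0174) and Ctsz 1.53 higher (SE 0.22, 2.89-fold, adjusted p = 0.0468). These 3 of 10 stood against 2.42% of all probe sets called (1.50% higher). The fit of 13445 probe sets with a mean of at least 5 called 736 higher and 374 lower. The Ctsz call was made in 0 of 8 fits without 1 rat, that of Ctsk in 4 of 8 (lost without any 1 of the SHR rats) and that of Ctss in 7 of 8 (lost without SHR 6 weeks rat 1). Cst3 was 0.50 higher (SE 0.11, adjusted p = 0.106) and did not pass.

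Cathepsin B had group means that ran in opposite directions with age in the 2 strains, though no test passed. It read 12.79 and 12.18 in Dahl rats of 6 weeks, 12.84 and 12.91 in Dahl rats of 4 weeks, 13.03 and 13.12 in SHR rats of 6 weeks, and 12.41 and 12.43 in SHR rats of 4 weeks. Both older Dahl rats lay below both younger ones, and both older SHR rats lay above both younger ones. In Dahl rats the fall rested mostly on rat 2 of 6 weeks (12.18), since rat 1 (12.79) lay close to the younger rat at 12.84. The age difference was -0.39 in Dahl rats (SE 0.20, limma adjusted p = 0.687) and 0.65 in SHR rats (SE 0.20, adjusted p = 0.219), and the difference between them, -1.04 (SE 0.28), had an adjusted p of 0.271.

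In Dahl rats 0 of 10 members changed with age in limma after adjustment, and 2 had an unadjusted p under 0.05, Ctss and Cst3. Over all probe sets 0.0805% were called, and 2718 of 31042 had an unadjusted p under 0.05. Ctss was 1.21 higher at 6 weeks (SE 0.11, 2.32-fold, adjusted p = 0.0828) and Cst3 0.33 higher (SE 0.11, 1.26-fold, adjusted p = 0.483), each with both older Dahl rats above both younger ones. The methods' t-test with the same adjustment called 0 of all probe sets in this comparison. Its 0 for the members therefore says nothing about them.

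Marker genes of other cells changed over the same rats. Of 27 macrophage markers measured, 14 were called higher and 2 lower in Dahl rats over both ages. Among them were Cybb, the oxidase subunit of phagocytes (1.92, adjusted p = 0.00473), Csf1r, the macrophage growth factor receptor (1.31, adjusted p = 0.00648), and C1qa, a complement chain made by macrophages (1.46, adjusted p = 0.00721). The 2 lower ones were Mrc1, the mannose receptor of macrophages (-1.76, adjusted p = 0.0106), and Cd163 (-0.14, adjusted p = 0.0249). Cd163, Itgam, Cx3cr1, Trem2, Ccr2 and Folr2 lay between 2.11 and 2.66 in every rat, the low end of the scale, while Lyz2, lysozyme, lay between 8.83 and 11.41. In this bulk RNA fewer cells of a type and less RNA per cell cannot be told apart.

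Each list was given a score in each rat: every gene was centred on its own mean, and the median over the list was taken. The macrophage score was 0.58 and 1.09 in Dahl rats of 6 weeks, -0.02 and -0.03 in Dahl rats of 4 weeks, 0.51 and 0.51 in SHR rats of 6 weeks, and -1.30 and -1.51 in SHR rats of 4 weeks. It was lowest in young SHR rats and higher at 6 weeks than at 4 weeks in both strains. The proximal tubule score, over 32 markers, was -0.18 and -1.87 in Dahl rats of 6 weeks, 0.19 and -0.04 in Dahl rats of 4 weeks, 0.21 and 0.40 in SHR rats of 6 weeks, and 0.66 and 0.88 in SHR rats of 4 weeks. Dahl 6 weeks rat 2 was far below every other rat.

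**Figure D3:**
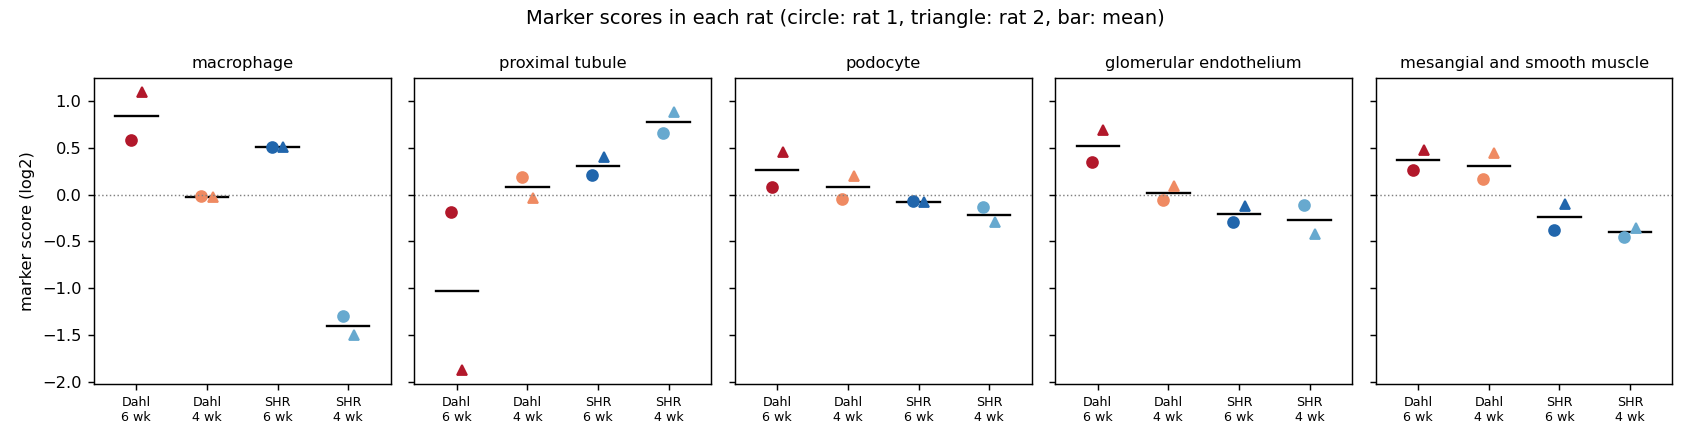
Marker score on the log2 scale (vertical axis) of 5 cell type lists in each rat of the 4 groups (horizontal axis), with circles for rat 1, triangles for rat 2 and bars for the mean. The macrophage score is lowest in SHR rats of 4 weeks (-1.30 and -1.51), and the proximal tubule score is lowest in Dahl 6 weeks rat 2 (-1.87).

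Of the proximal tubule markers, 1 was called higher and 4 lower in Dahl rats, among them the dipeptidase Dpep1 (-2.95, adjusted p = 0.00835) and the cytochrome Cyp2e1 (-2.49, adjusted p = 0.0283), with a list median of -0.96. Other glomerular cells ran with the strain as well. The mesangial score was 0.26 and 0.47 in Dahl rats of 6 weeks and 0.17 and 0.45 in Dahl rats of 4 weeks, against -0.38 and -0.10 in SHR rats of 6 weeks and -0.46 and -0.35 in SHR rats of 4 weeks, with no overlap of the strains. Called higher were 9 of 16 mesangial and smooth muscle markers, 9 of 17 endothelial markers and 6 of 16 podocyte markers, and 1 mesangial marker was called lower. Lower in Dahl rats were also 9 of 23 distal nephron markers, 7 of 16 lymphocyte markers and 1 of 6 neutrophil markers, with 0 higher in each of these lists. The 7 lymphocyte markers and the neutrophil marker Mmp8 lay at the low end of the scale, between 2.15 and 3.78 in every rat. These counts stand against 10.6% of all probe sets called higher and 24.2% called lower. The shares of lower neutrophil markers and of lower proximal tubule markers were below that of all probe sets. Among probe sets with a mean of at least 5 the lower share was smaller (1662 of 13445). It was close to that of the proximal tubule markers. How much the other cells contributed to the strain differences of the members was not tested.

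Each member was set against both scores over the 8 rats, which makes 20 relations, with exact permutation p-values adjusted over the 20. With the macrophage score Ctss had r = 0.98 (rho = 0.98, adjusted p = 0.000992 for r and 0.00198 for rho), Ctsz had r = 0.96 (rho = 0.90, adjusted p = 0.00521 and 0.0152) and Ctsk had r = 0.93 (rho = 0.79, adjusted p = 0.0198 and 0.0559). Cst3 had r = 0.73 (rho = 0.74, adjusted p = 0.0731 and 0.0764). Both SHR rats of 4 weeks lie farthest from the median score, and without them r over 6 rats was 0.88 for Ctss, 0.77 for Ctsz, 0.41 for Ctsk and 0.13 for Cst3, with exact permutation adjusted p between 0.122 and 0.806. The relations of Ctsk and Cst3 with the macrophage score thus rest on those 2 rats.

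With the proximal tubule score Ctsc had r = 0.98 (rho = 0.98, exact permutation adjusted p = 0.00149 and 0.00198), Ctsh had r = 0.98 (rho = 0.90, adjusted p = 0.00521 and 0.0152) and Ctsa had r = 0.93 (rho = 0.86, adjusted p = 0.00714 and 0.0306). Cst3 ran against it with r = -0.76 (rho = -0.98, adjusted p = 0.00777 and 0.00198), as did Ctss with r = -0.76 (rho = -0.79, adjusted p = 0.0281 and 0.0559). Ctsk ran against it in rank, with r = -0.72 and rho = -0.98 (exact permutation adjusted p = 0.0731 and 0.00198). Without the farthest rats, Dahl 6 weeks rat 2 and SHR 4 weeks rat 2, r was 0.86 for Ctsc, 0.76 for Ctsh, 0.71 for Ctsa, -0.94 for Cst3, -0.87 for Ctsk and -0.81 for Ctss. Of the 20 relations only that of Cst3 then had an adjusted p of r under 0.05 (0.0278 by exact permutation, and 0.0556 for rho). Ctsl, Ctsb and Ctsd had r between 0.30 and 0.40 with the tubule score and between -0.53 and 0.30 with the macrophage score, none of them past the threshold.

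As a description with no test, the same correlations were taken on each rat's deviation from its group mean, which rests mostly on the 2 Dahl rats of 6 weeks. With the tubule score they were 1.00 for Ctsc, 0.97 for Ctsb, 0.95 for Ctsa, 0.94 for Ctsh, 0.69 for Ctsl and 0.26 for Ctsd. Below 0 were Ctss (-0.72), Ctsk (-0.60), Ctsz (-0.49) and Cst3 (-0.16). With the macrophage score they were 0.84 for Ctss, 0.56 for Ctsk, 0.42 for Ctsz and 0.08 for Cst3. Below 0 were Ctsa (-0.99), Ctsc (-0.98), Ctsh (-0.94), Ctsb (-0.93), Ctsl (-0.83) and Ctsd (-0.15).

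**Figure D4:**
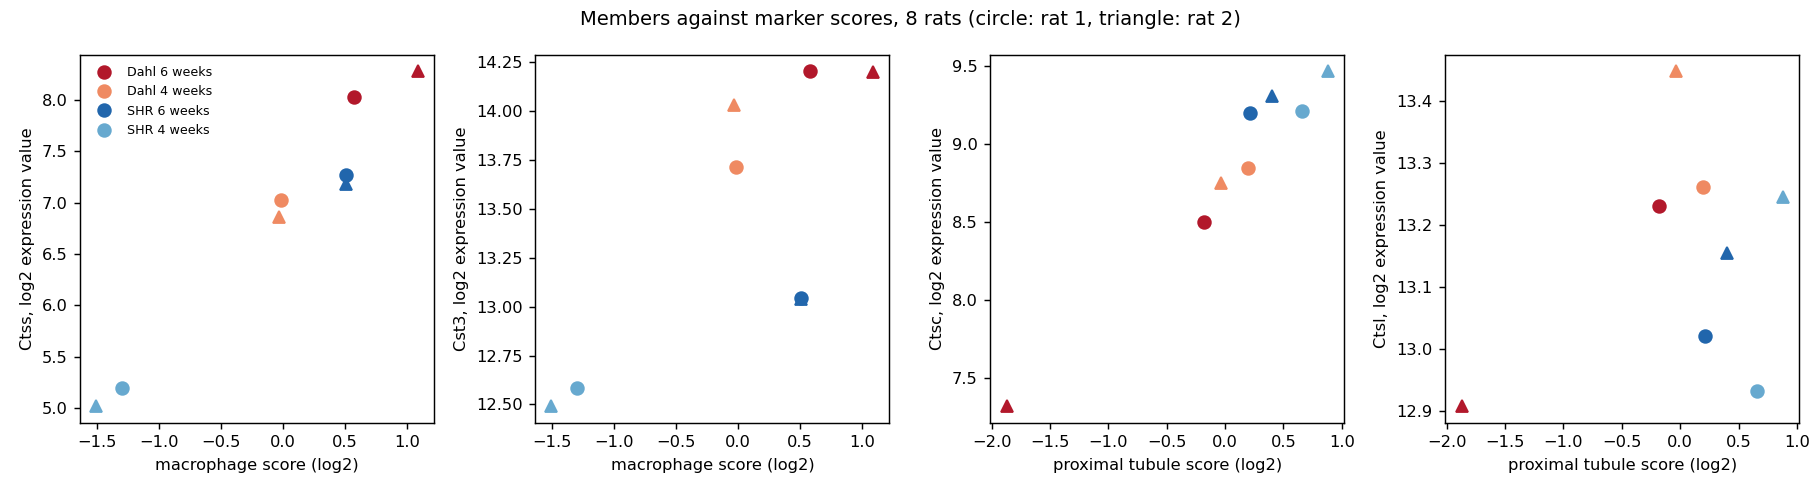
Log2 expression value (vertical axes) of Ctss and Cst3 against the macrophage score and of Ctsc and Ctsl against the proximal tubule score (horizontal axes, log2), for 8 rats coloured by group. Ctss and Ctsc follow their scores closely (r = 0.98 each), while Cst3 in SHR rats of 6 weeks lies at 13.04, below Dahl rats of 4 weeks whose macrophage score is lower.

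The 2 scores were themselves related (r = -0.73 over 8 rats, exact permutation p = 0.0257), so the relations are not separate observations. They share the arrays with the members, and the 8 rats fall into 4 groups that differ in both. Pairs of groups separate the members further, as a description. SHR rats of 6 weeks had a higher macrophage score than Dahl rats of 4 weeks. Ctss followed that order, at 7.02 and 6.86 in Dahl rats of 4 weeks against 7.27 and 7.18 in SHR rats of 6 weeks, whereas Ctsk (7.26 and 7.44 against 7.11 and 7.22) and Cst3 (13.71 and 14.03 against 13.04 and 13.04) were higher in the young Dahl rats. Ctsz overlapped between these groups.

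The scores were also added, one at a time, to the fit of the strain difference over both ages, where the slope rests on differences between rats of the same group, mainly the 2 Dahl rats of 6 weeks. With the tubule score Ctss remained called (1.24, SE 0.10, limma adjusted p = 0.0413), Cst3 was at 1.22 (adjusted p = 0.0552), Ctsk at 0.66 (adjusted p = 0.0686), and Ctsa and Ctsc moved to -0.14 and -0.23 and Ctsh to 0.0030. With the macrophage score 0 of 10 were called, Cst3 was at 1.21 (SE 0.27, adjusted p = 0.326) and Ctss at 0.93 (SE 0.16, adjusted p = 0.265). Over all probe sets the tubule score left 198 higher and 126 lower calls and the macrophage score left 0 (3312 had an unadjusted p under 0.05), with 3 residual degrees of freedom.

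The 2 Dahl rats of 6 weeks gave a comparison within one strain and age. Rat 2 minus rat 1 was -1.69 for the tubule score and 0.51 for the macrophage score. It was lower than rat 1 for Ctsc (-1.18), Ctsh (-0.87), Ctsb (-0.61), Ctsa (-0.38), Ctsl (-0.32) and Ctsd (-0.13). It was higher for Ctsz (0.38), Ctss (0.25) and Ctsk (0.13), and Cst3 was level (-0.0033). For 6 of the 10 members this pair differed more than the pair of any other group, where 37.0% of all probe sets did. With 1 rat on each side these are values with no test, and how much tubule or macrophage RNA contributed to them was not tested.

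**Figure D5:**
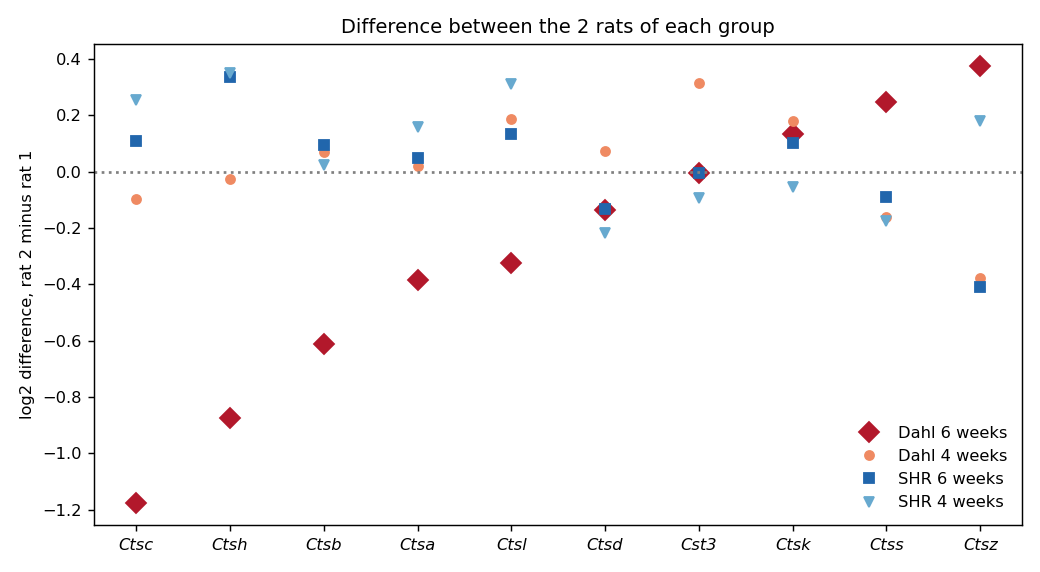
Log2 difference between the 2 rats of each group, rat 2 minus rat 1 (vertical axis), for each member (horizontal axis, ordered by the Dahl 6 weeks pair, diamonds). Ctsc (-1.18) and Ctsh (-0.87) lie lowest in the Dahl 6 weeks pair, and no other group has a pair of any member more than 0.41 apart.

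The members fell into sets by their values over the 8 rats. Ctss, Ctsk and Ctsz correlated with each other at r between 0.94 and 0.97, and Ctsa, Ctsh and Ctsc at r between 0.94 and 0.97, given as a description over 8 rats that share strain and age. Cst3 correlated best with Ctsk (r = 0.90) and had r = -0.84 with Ctsa. Of 5114 other genes with a mean of at least 6 and a range of at least 0.5, those most like Ctss were Unc93b1, a carrier of endosomal Toll-like receptors, Ifi44 and Pmepa1 (each r = 0.99). Most like Ctsz were Rhob, Ifi35 and the macrophage pore protein Mpeg1 (r = 0.99 each), and most like Ctsk were Tpd52l1, Limd2 and biglycan (Bgn), a matrix proteoglycan (r of 0.99 to 1.00).

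Those most like Ctsh were Susd3, Stmp1 and Sat2 (r of 0.99 to 1.00), those most like Ctsc Atp5f1c, a subunit of ATP synthase, Cenpp and Suox (r = 1.00 each), and those most like Ctsa Ndufb9, a subunit of respiratory complex I, Bphl and Aifm1 (r = 0.99 each). For Cst3 they were the transcription factor Mef2c, Dpysl2 and Sema6a (r = 0.99 each). For Ctsb they were the aldo-keto reductase Akr1c1, the cytosolic cystatin Cstb and Ehd1 (r of 0.96 to 0.99). Ctsl (Sh3d19, Plcl1 and Nit2) and Ctsd (Taf1d, Trappc11 and Hip1r) reached r of no more than 0.91 and 0.87 with any of these genes.

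Other genes of the system were read from lists, whose counts stand against the 10.6% of all probe sets called higher and 24.2% called lower over both ages. Of 11 further cathepsins and relatives 0 were called higher and 5 lower over both ages, Ctsq, Ctsm, Ctsr, Ctsj and Ctsw, all between 2.20 and 3.13 in every rat at the low end of the scale. Legumain (Lgmn), the asparaginyl protease that processes other cathepsins, differed by -1.14 (SE 0.39, limma adjusted p = 0.0709) and Ctso by 0.60 (SE 0.19, adjusted p = 0.0625). Of 14 other cystatins and protease inhibitors, 2 were higher, Serpinb6a (1.20, adjusted p = 0.0188) and Ctla2a (0.42, adjusted p = 0.0434), and 6 lower, among them Kng2l1, Cst11 and Stfa3, with no value above 3.85 in any rat. Cstb differed by -0.03 (SE 0.08, adjusted p = 0.749).

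Of 29 lysosomal hydrolases and activators, 6 were higher and 6 lower. Psap, the precursor of the saposins (0.31, adjusted p = 0.0150), and acid ceramidase Asah1 (0.51, adjusted p = 0.0177) were higher, and acid lipase Lipa (-0.59, adjusted p = 0.0104) and the mannosidase Man2b1 (-0.89, adjusted p = 0.0150) were lower. Of 35 genes of the lysosomal membrane, sorting and acidification, 1 was higher, Laptm4a (0.44, adjusted p = 0.0369), and 8 lower, among them the cystine exporter Ctns (-0.21, adjusted p = 0.0191) and the proton pump subunits Atp6v1f (-0.34, adjusted p = 0.0247) and Atp6v1e1 (-0.37, adjusted p = 0.0350). The share of lower genes in this membrane list was close to that of all probe sets. Among probe sets with a mean of at least 5 the lower share was smaller, 1662 of 13445. Among targets of cathepsin L, Dnm1 was 1.75 higher in Dahl rats (SE 0.17, adjusted p = 0.00826) and synaptopodin (Synpo) 0.59 higher (SE 0.09, adjusted p = 0.0164). Cd2ap (0.22, adjusted p = 0.0840) and Dnm2 (-0.03, adjusted p = 0.663) did not pass. The Dnm2 probe set read between 3.79 and 4.03 in every rat, below the array medians of 4.11 to 4.16.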

How the data were processed

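Glomerular RNA of 8 rats was measured on Affymetrix Rat Genome 230 2.0 arrays. The log2 values were deposited by the authors after background correction, normalization between arrays and summary per probe set. RMA and GCRMA appear in the submitters' notes with no version, and neither the choice between them nor the days of array processing was stated in the sources. Array medians lay between 4.11 and 4.16. The number of arrays limits the precision. No further normalization was applied, 57 control probe sets were left out, and 31042 were tested. The platform annotation named 1 gene for 20826 probe sets, several for 436 and none for 9780.

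The 4 group means were fitted with limma 3.58.1 in R 4.3.3 (4 residual and 0.921 prior degrees of freedom), with Benjamini-Hochberg adjustment over all probe sets and a threshold of 0.05. The fit was tested on simulated data. Exact permutation tests and correlations were run in Python 3.11.15 with scipy 1.17.1. Alternatives were another variance model, quantile normalization, median centring, a filter at a mean of 5, other choices of probe set, an additive model, a block for replicate number, the scores as covariates, the methods' t-test, and leaving out each rat.

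The members and gene lists were chosen with earlier results of these data known. Named genes are the members, 4 cathepsin L targets (Dnm1, Dnm2, Synpo and Cd2ap), up to 4 genes of each list by p, and the 3 genes most like each member. Lgmn, Ctso, Cstb, Lyz2, Serpinb6a, Ctla2a, Laptm4a, Mrc1, Ctsw and the 6 macrophage markers at the low end of the scale were named after their values were seen. Promoter windows came from RefSeq on GRCr8, and no genome sequence was used.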

Additional observations from a re-analysis of the deposited data

Results flagged for a closer look

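In each strain, the 4 rats were checked for a value far from the other 3, over 12 probe sets and 2 strains (24 checks), and chance flags about 1 in 20 such groups. Among Dahl rats, rat 2 of 6 weeks stood apart for Ctsb, with a log2 value of 12.18, and for Ctsa, with 12.34. It was the lower of the 2 Dahl 6 weeks rats in both cases, and the same rat had the lowest proximal tubule score. The 4 rats of a strain span 2 ages, so a change with age can widen or narrow the gap.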

How the results depend on the processing

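Over both ages 5 members were called, and 1 with the proximal tubule score as a covariate, 0 with the macrophage score, 2 with the methods' t-test (Cst3 and Ctsa) and 3 to 8 without 1 rat. The count was 8 without Dahl 6 weeks replicate 1 and 3 without SHR 4 weeks replicate 1 or 2 or SHR 6 weeks replicate 2. Quantile normalization left 4, all higher, without Ctsa. At 4 weeks the 4 calls became 0 with the macrophage score, 0 with the t-test and 3 to 5 without 1 rat. At 6 weeks the 2 calls became 0 with either score as a covariate, 1 with the t-test and 0 to 6 without 1 rat. There were 6 without Dahl 6 weeks replicate 1, where the calls over all probe sets were 1640 higher and 1712 lower, against 512 and 505 with all rats. There was 1 without either Dahl rat of 4 weeks, and 0 without Dahl 6 weeks replicate 2 or any SHR rat. The change of the strain difference with age had 0 calls, and 0 to 1 without 1 rat (1 without Dahl 6 weeks replicate 1). The age change in Dahl rats had 0 calls, 1 among probe sets with a mean of at least 5 (Ctss), and 0 to 3 without 1 rat (3 without Dahl 6 weeks replicate 1, with 540 higher and 503 lower over all probe sets, against 16 and 9). In SHR rats the 3 age calls became 0 with the macrophage score, 0 with the t-test and 0 to 3 without 1 rat, being 0 without SHR 6 weeks replicate 1 and 1 without SHR 6 weeks replicate 2 or either SHR rat of 4 weeks. Of 20 relations with the scores 8 passed, and 1 without the 2 arrays farthest from the median score. Over all probe sets the t-test called 1979 higher and 10040 lower over both ages, 0 at 4 weeks and 0 for age in either strain. At 6 weeks it called 1 higher and 3 lower. The t-test was not run for the change of the strain difference with age, and the cause of these shifts was not tested.

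Same-numbered rats did not pair (correlations of their deviations between -0.225 and 0.236). With replicate number as a block, 4 members were called over both ages, with Ctsa lost (limma adjusted p = 0.0734). Called were 3 at 4 weeks, 0 at 6 weeks and 2 for age in SHR rats. Over all probe sets this block fit called 2408 higher and 3190 lower over both ages, and 1133 and 895 at 4 weeks. At 6 weeks it called 208 higher and 131 lower, and for age in SHR rats 221 and 139.

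Directions of the strain difference over both ages turned for Ctsb and Ctsd in several alternatives. Those of Ctsa, Ctsc and Ctsh turned only with a score as a covariate. With no covariate Ctsc stood at -0.94, Ctsh at -0.55 and Ctsa at -0.37. With the tubule score as a covariate the strain difference over both ages was 0.29 for Ctsb, 0.0196 for Ctsd and 0.0030 for Ctsh. With the macrophage score it was 0.82 for Ctsb, 0.0440 for Ctsd, 0.27 for Ctsa, 0.90 for Ctsh and 0.88 for Ctsc, with adjusted p between 0.333 and 0.968. Quantile normalization gave 0.0237 for Ctsb. Without 1 rat Ctsb lay between -0.22 and 0.0880 and Ctsd between -0.0806 and 0.0280, the sign of Ctsb turning without Dahl 6 weeks replicate 2 (0.0880) and that of Ctsd without that rat or either of 2 SHR rats. Without the 2 farthest arrays, r was -0.63 for Ctsb with the macrophage score, and -0.74 for Ctsl and -0.37 for Ctsb with the tubule score.

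Each group has 2 rats, so a covariate or a rat left out leaves little to estimate the spread, and a group of 1 is assumed to vary like the others. Probe sets at the low end of the scale have compressed differences. Array values show RNA, not protease activity.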
